A study of Mus musculus with 4 samples.

Results

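The Zfp9xx zinc-finger genes are the 61 gene rows, of 32285 in the deposited expression tables, whose symbol is Zfp9 followed by 2 more digits. The rule uses the symbol alone. The tumours came from CT26, a BALB/c colon carcinoma line, placed under the skin of a flank in syngeneic BALB/c hosts. They were harvested at day 14, digested with collagenase IV and DNase I and reduced to nuclei. The injected cells were wild type for Sun1 (Sun1_WT) or knocked out for it (Sun1_KO), and the hosts' own cells were in both cases unedited as far as the labels say. With the 10x multiome kit, RNA and accessible DNA of each nucleus share a barcode, and there was 1 expression and 1 accessibility library per genotype. Whether the Sun1_KO cells are 1 clone, and how many mice were used, the sources used here do not state. Without replicates no test of genotype could be made, and a genotype cannot be told apart from its library or cell population. All intervals are 95% intervals that cover counting error only, and every ratio between genotypes is a log2 ratio of Sun1_KO over Sun1_WT.

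Many genes of the mouse Zfp series encode KRAB zinc-finger proteins, in which an array of zinc fingers binds DNA and the KRAB domain recruits the co-repressor encoded by Trim28. Trim28 in turn brings in the histone methyltransferase Setdb1 and heterochromatin proteins, and much of the family is known for silencing transposable elements. The genes lie in tandem clusters that differ between mouse strains, so near-identical copies can match the same reads, and the counts of close copies are uncertain.

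Of the 61 genes, 58 had a position in the RefSeq table (GRCm38.p6), and 40 of these lay in 5 groups of neighbours no more than 2 Mb apart. The chromosome 4 group held 14 genes over 2.34 Mb (chr4:145510759-147849126), the chromosome 17 group 10 genes (chr17:21565816-22867309), the chromosome 2 group 9 genes (chr2:175372034-178078425), the chromosome 7 group 4 genes (chr7:42579397-43192109) and the chromosome 8 group 3 genes (chr8:69209018-69749962). The other 18 stood alone or in pairs, and Zfp969, Zfp986 and Zfp989 were not placed.

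Promoter windows of 300 bases, from 250 before to 50 after a gene's start, were taken from RefSeq (GRCm38.p6) for the 51 members that matched by symbol. The 5 shown are those of members whose RNA or accessibility is described below, 2 from the chromosome 7 group and 3 from the chromosome 4 group. Capitals mark CCAAT or its complement ATTGG. The windows are chr7:43177340-43177639 (plus strand) for Zfp936, chr7:42642555-42642854 (minus strand) for Zfp976, chr4:145670447-145670746 (plus) for Zfp980, chr4:146514670-146514969 (plus) for Zfp981 and chr4:147553027-147553326 (plus) for Zfp985.
Zfp936: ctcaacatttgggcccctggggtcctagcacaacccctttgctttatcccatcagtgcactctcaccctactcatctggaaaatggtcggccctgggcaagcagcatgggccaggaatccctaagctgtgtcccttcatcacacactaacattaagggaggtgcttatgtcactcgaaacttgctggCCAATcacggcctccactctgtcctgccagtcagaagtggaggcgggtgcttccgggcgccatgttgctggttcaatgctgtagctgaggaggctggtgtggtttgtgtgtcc
Zfp976: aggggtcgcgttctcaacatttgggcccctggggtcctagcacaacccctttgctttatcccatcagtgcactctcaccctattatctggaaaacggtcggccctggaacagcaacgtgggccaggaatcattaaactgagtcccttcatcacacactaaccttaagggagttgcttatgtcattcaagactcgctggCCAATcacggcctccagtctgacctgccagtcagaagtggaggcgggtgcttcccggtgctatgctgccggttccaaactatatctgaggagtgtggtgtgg
Zfp980: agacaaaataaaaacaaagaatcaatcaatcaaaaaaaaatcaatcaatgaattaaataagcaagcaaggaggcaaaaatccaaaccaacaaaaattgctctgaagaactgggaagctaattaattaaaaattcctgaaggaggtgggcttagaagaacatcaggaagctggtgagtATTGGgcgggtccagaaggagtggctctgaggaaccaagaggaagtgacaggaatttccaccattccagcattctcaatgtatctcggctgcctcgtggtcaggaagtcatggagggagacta
Zfp981: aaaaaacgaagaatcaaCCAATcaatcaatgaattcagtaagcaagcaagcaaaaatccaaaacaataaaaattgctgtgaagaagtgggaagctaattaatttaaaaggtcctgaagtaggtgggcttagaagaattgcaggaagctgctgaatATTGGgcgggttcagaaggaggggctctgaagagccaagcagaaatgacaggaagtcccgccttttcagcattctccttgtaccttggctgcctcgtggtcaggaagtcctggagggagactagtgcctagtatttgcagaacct
Zfp985: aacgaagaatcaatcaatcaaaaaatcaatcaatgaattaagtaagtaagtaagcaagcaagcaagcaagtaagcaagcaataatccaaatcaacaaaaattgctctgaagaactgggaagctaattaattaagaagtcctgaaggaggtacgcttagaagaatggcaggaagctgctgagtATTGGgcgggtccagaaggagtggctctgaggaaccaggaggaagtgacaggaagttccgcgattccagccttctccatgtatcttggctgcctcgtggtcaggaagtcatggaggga
Zfp936 and Zfp976 were 82.4% identical over the window. Zfp980 and Zfp985 were 81.9% identical, Zfp980 and Zfp981 75.5%, and Zfp981 and Zfp985 72.0%. Of the 51 members, 16 were at least 80% identical to their closest member and 7 at least 90%, in each case a member on the same chromosome. Zfp966 and Zfp967 had the same letters throughout. CCAAT, read on both strands, was found in 39 of 51 member windows (76.5%) and in 37.9% of all 27025 promoter windows. In the chromosome 4 group it was found in 8 of 10. TATAAA, on both strands, was found in 0 of 51 member windows and in 14.2% of all windows. GGGCGG, on both strands, was found in 35.3% of member windows and 35.9% of all windows, and AANATGGC in 9.80% and 6.23%. In the chromosome 4 group GGGCGG was found in 7 of 10 windows and AANATGGC in 0 of 10. Such matches describe these letters only.

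The Sun1_WT expression library held 3455 nuclei and 53707675 UMIs (counted RNA molecules), and the Sun1_KO library 2404 nuclei and 35471291 UMIs, with 12 barcodes in both. Nuclei were gated on 10 tumour and 10 leukocyte genes, which gave 2587 Sun1_WT and 1383 Sun1_KO tumour nuclei, with medians of 16333 and 16324 UMIs. The host leukocyte gate held 386 nuclei in each library, at medians of 3502.5 and 3224 UMIs. The summed level of the leukocyte list was 51.9 and 84.0 CPM (counts per 1e6 UMIs of the gate, without mitochondrial genes) in Sun1_WT and Sun1_KO tumour nuclei and 8510 and 8918 CPM in host nuclei. Mitochondrial UMIs made up 6.93% and 11.3% of UMIs in the tumour nuclei. With mitochondrial genes kept in the total, the count of members at least 2-fold lower stayed at 5 and that of members at least 2-fold higher went from 1 to 0. Of 14573 genes with at least 50 summed UMIs, 597 were then lower and 710 higher, in place of 482 and 816. The targeted gene Sun1 was measured at 104 CPM in Sun1_WT against 64.7 CPM in Sun1_KO tumour nuclei, a ratio of -0.69 (-0.77 to -0.60).

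Summed over the 61 members, tumour nuclei held 45629 UMIs or 1035 CPM (1025 to 1044) in Sun1_WT and 29636 UMIs or 1219 CPM (1205 to 1233) in Sun1_KO. Host nuclei held 1035 UMIs or 645 CPM (606 to 685) and 915 UMIs or 654 CPM (612 to 698). The sum was thus higher in tumour than in host nuclei in both libraries. Much of it came from few genes, since its 5 highest members gave 43.7% of it in Sun1_WT tumour nuclei and its 5 highest, with Zfp934 in place of Zfp942, 43.0% in Sun1_KO tumour nuclei.

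The 5 in Sun1_WT were Zfp985 (120 CPM, 5291 UMIs), Zfp948 (99.9 CPM, 4408 UMIs), Zfp981 (91.5 CPM, 4037 UMIs), Zfp950 (86.5 CPM, 3813 UMIs) and Zfp942 (54.1 CPM, 2387 UMIs). In Sun1_KO the same genes stood at 131, 117, 91.8, 115 and 68.9 CPM. Divided by the kilobases of gene span, Zfp948 stood at 4.25 CPM per kb in Sun1_WT, above Zfp985 at 3.76 and Zfp981 at 2.45. Whether these counts follow gene span was not tested.

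In tumour nuclei, 54 of the 61 members reached the minimum of 50 summed UMIs. Of these, 5 were at least 2-fold lower in Sun1_KO, where 3.31% of all 14573 measured genes were. They were Zfp978, Zfp990, Zfp980, Zfp986 and Zfp988. The only measured member at least 2-fold higher was Zfp954, where 5.6% of all genes were. Most members differed less. Among the measured members 45 of 54 were above 0 and 9 below, beside 62.8% and 37.2% of all genes, and the median was 0.24 beside 0.16 for all genes. The split depended on the scaling: with TMM, which moved every ratio by -0.217, 32 members were above 0 and 22 below, and with median-ratio scaling 34 and 20. The median of all genes moved by the same amount, to -0.06 with TMM and 0.00 with median-ratio scaling. Beside these the member medians were 0.03 and 0.09. The 249 measured Zfp genes with other numbers had a median of 0.32, with 2 at least 2-fold lower and 4 higher.

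Zfp978 had by far the lowest ratio. It counted 638 UMIs in Sun1_WT tumour nuclei, or 14.5 CPM (13.4 to 15.6), and 18 UMIs in Sun1_KO, or 0.74 CPM (0.44 to 1.17), a ratio of -4.25 (-5.05 to -3.62). The share of tumour nuclei with a UMI of the gene was 18.2% for Sun1_WT, against 1.23% for Sun1_KO, at like median depths. In host nuclei it counted 3 and 1 UMIs, too few to compare. The gene spans chr4:147124882-147392027 and overlaps Zfp991 and Zfp988, so the counts of the 3 are uncertain where they overlap.

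The authors' deposited table gives a different picture of this gene. It lists Zfp978 at a log2 fold change of 0.03 with an adjusted p of 0.878, whereas the deposited counts of all nuclei give 693 and 20 UMIs, a log2 ratio of -4.48. Unlike the gate ratios, all ratios from counts in this paragraph were scaled by totals that kept mitochondrial genes. These genes made up 6.83% of all Sun1_WT and 11.5% of all Sun1_KO UMIs. The mismatch was not particular to Zfp978: of 21 genes in the authors' deposited table that were at least 4-fold lower in those counts, 15 were listed above 0, with a median of 0.15 in the table and -2.72 in the counts. Over 10143 genes the table's values lay a median of 0.52 above the ratios from counts. It listed 29 members, all above 0, beside 92.9% of its rows, and 5 of these 29 were below 0 in the counts of all nuclei. The 5 were Zfp978, Zfp981 (-0.124), Zfp938 (-0.118), Zfp985 (-0.046) and Zfp983 (-0.016). Those near 0 depend on the scaling. The reason for the mismatch was not tested, and no direction for the members is read here from the authors' deposited table.

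The other members at least 2-fold lower were far less abundant. Zfp990 had 83 and 15 UMIs, 1.88 CPM in Sun1_WT and 0.617 CPM in Sun1_KO, a ratio of -1.57 (-2.51 to -0.80). Zfp980 counted 48 and 11 UMIs, with its ratio at -1.22 (-2.36 to -0.30). Zfp986 counted 43 and 11 UMIs, with its ratio at -1.06 (-2.21 to -0.13). Zfp988 counted 146 and 39 UMIs, with its ratio at -1.03 (-1.59 to -0.53). The intervals of all 4 reach above -1, so only the interval of Zfp978 lay wholly past 2-fold. All 4 had 0 UMIs in the host nuclei of both libraries.

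Zfp954 was at 6.39 CPM (282 UMIs) in Sun1_WT and 13.0 CPM (316 UMIs) in Sun1_KO, a ratio of 1.02 (0.79 to 1.26). Other scalings put it under 2-fold, at 0.81 (TMM), 0.87 (median-ratio) and 0.95 (mitochondrial genes in the total). With each nucleus thinned to 1000 UMIs it had 21 and 11 UMIs, found in 0.816% and 0.804% of nuclei, so no difference was detectable at that depth. In all, 6 of 54 members were at least 1.5-fold higher, where 15.2% of all genes were. Beside Zfp954 they were Zfp940 (0.86, 27 UMIs in each library), Zfp966 (0.76, 193 and 180 UMIs), Zfp956 (0.75, 149 and 138), Zfp970 (0.74, 141 and 130) and Zfp975 (0.69, 714 and 636). With TMM 2 members remained past 1.5-fold higher, since Zfp966, Zfp956, Zfp970 and Zfp975 stood at 0.54, 0.53, 0.53 and 0.48. At least 1.5-fold lower were 5 of 54, the same 5 as at 2-fold, where 10.1% of all genes were. Zfp936, at 346 and 128 UMIs, had a ratio of -0.57 (-0.88 to -0.28), and it passed 1.5-fold lower with TMM (-0.79), median-ratio scaling (-0.73) and mitochondrial genes in the total (-0.64). Zfp947 (-0.48, 153 and 60 UMIs) also passed it with TMM and with median-ratio scaling.

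**Figure D1:**
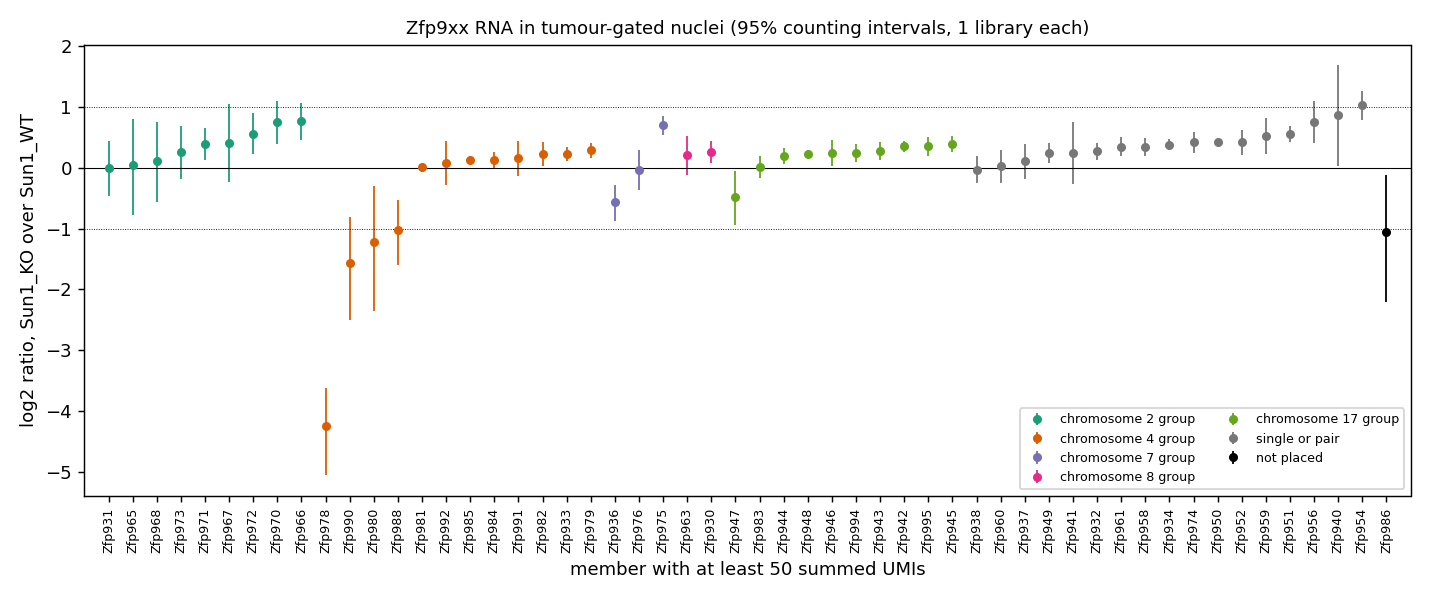
Log2 ratio of RNA, Sun1_KO over Sun1_WT, in tumour nuclei for the 54 members with at least 50 summed UMIs, coloured by position group, with bars for 95% counting intervals and dotted lines at 2-fold. Zfp978 lies at -4.25, Zfp990 at -1.57 and Zfp980 at -1.22, Zfp986 and Zfp988 lie just below the lower line, and Zfp954 lies at 1.02.

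The plot of ratios by position group shows how the groups differed. In the chromosome 2 group the median of the 9 members was 0.39, with Zfp931 at 0.00 and the others between 0.04 and 0.76, and with TMM 3 of the 9 were below 0. In the chromosome 17 group 9 of 10 were above 0 (7 with TMM), with a median of 0.24, and Zfp947 was at -0.48 (153 and 60 UMIs). In the chromosome 7 group Zfp975 was at 0.69, Zfp976 at -0.04 and Zfp936 at -0.57. The chromosome 4 group was mixed, with 4 of 12 measured members at least 2-fold lower and a median of 0.10, which was -0.11 with TMM and -0.05 with median-ratio scaling.

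The other 8 measured members of the chromosome 4 group had ratios between 0.00 and 0.29, at both higher and lower UMI counts than Zfp978. Zfp985 had a ratio of 0.12 (5291 and 3174 UMIs), Zfp981 of 0.00 (4037 and 2231) and Zfp933 of 0.23 (1572 and 1015). Zfp979 was at 0.29 (1298 and 873 UMIs), Zfp984 at 0.13 (1199 and 723) and Zfp982 at 0.22 (541 and 347). Zfp991, which lies inside the span of Zfp978, was at 0.15 (270 and 165 UMIs), and Zfp992 was at 0.08 (175 and 102). In order along the chromosome, Zfp990 and Zfp980 came first, members near 0 and the low Zfp978 and Zfp988 alternated in the middle, and the last 5 members, from Zfp982 to Zfp933, lay between 0.12 and 0.29.

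The 5 measured genes of other names inside the group ran from -4.71 to -0.65, and 3 were at least 2-fold lower. 1700095A21Rik, which overlaps Zfp981, counted 118 and 2 UMIs, and its ratio was -4.71 (-8.09 to -3.14). Gm13165 had 80 and 10 UMIs (-2.08), and Zfp600 had 215 and 54 (-1.12). In the 5 Mb on either side, 1 of 93 measured genes was at least 2-fold lower (Nppb, 639 and 82 UMIs, -2.10) and 4 were higher, with a median of 0.18.

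**Figure D2:**
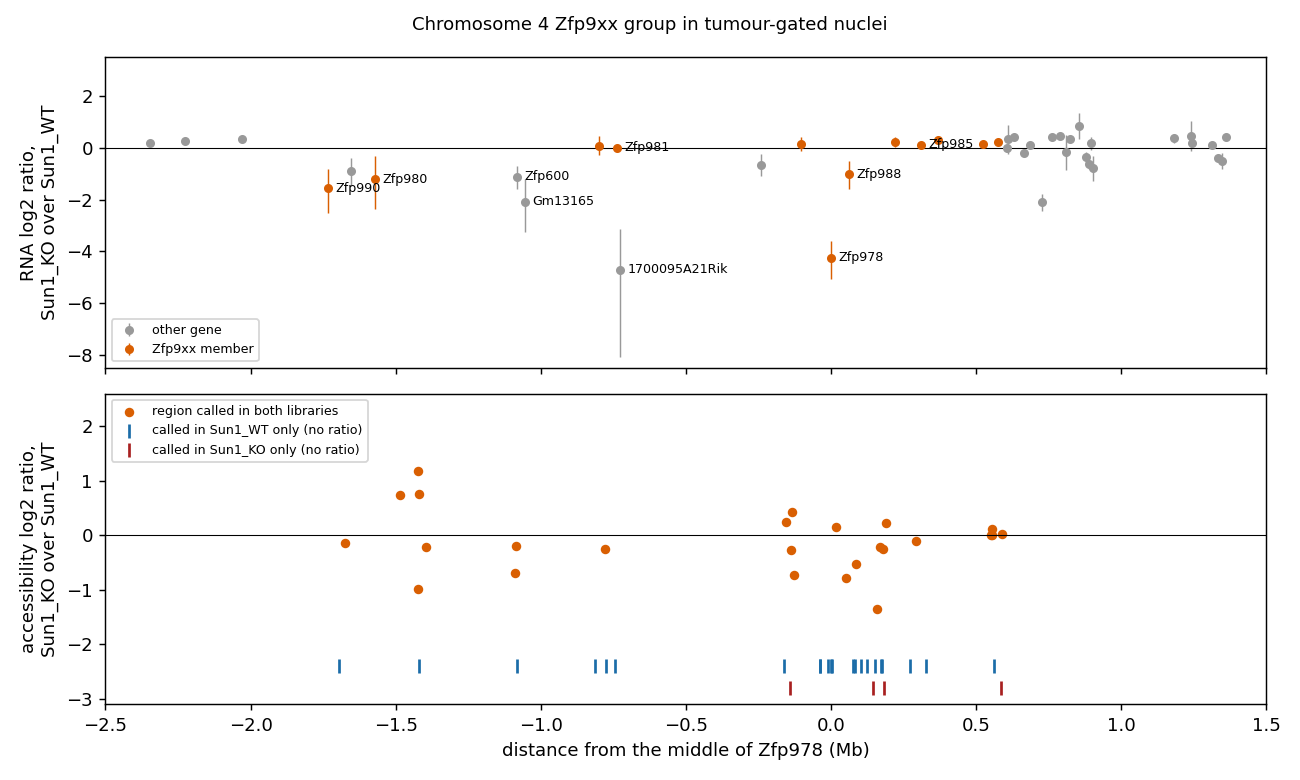
Log2 ratios, Sun1_KO over Sun1_WT, in tumour nuclei against distance in Mb from the middle of Zfp978: RNA with 95% counting intervals above, and accessible regions below, with ticks for regions called in 1 library. Low ratios (Zfp978, 1700095A21Rik, Gm13165) stand among members near 0, and Sun1_WT-only regions number 22 against 4 for Sun1_KO only.

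By the distance over log2(CPM + 1) in the 4 combinations of genotype and gate, the genes nearest to Zfp978 of 14931 compared were Tnr (0.64), Akr1c18 (1.10), Aldh3a1 (1.21), Gm41724 (1.23) and P2rx3 (1.42). None of these lies on chromosome 4.

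Sun1_WT tumour nuclei were not uniform. Accessibility on the X chromosome between 5 and 45 Mb, a stretch chosen after its values were seen, was under 3000 CPM in 21.8% of Sun1_WT and 96.1% of Sun1_KO tumour nuclei. Zfp978 stood at 18.8 CPM (182 UMIs) in the 565 Sun1_WT nuclei under that level and at 13.3 CPM (456 UMIs) in the 2022 at or above it. Zfp988 likewise stood at 4.54 and 2.96 CPM in these sets, Zfp990 at 2.07 and 1.83 CPM and Zfp980 at 1.34 and 1.02 CPM. Zfp986 differed from them, at 0.413 CPM (4 UMIs) under the level and 1.13 CPM at or above it, against 0.453 CPM in all Sun1_KO tumour nuclei, so no lower level in Sun1_KO was detectable beside Sun1_WT nuclei under the level. With Sun1_WT tumour nuclei restricted to those under that level, 47 members reached the minimum. Of these, 2 were at least 2-fold lower (Zfp978 and Zfp988) and 2 higher (Zfp954 and Zfp966), while Zfp990, Zfp980 and Zfp986 fell under the minimum. Of all 13168 genes measured in that comparison, 320 were at least 2-fold lower and 737 higher. Without the 54 Sun1_KO tumour nuclei at or above the level, 4 members were lower, and Zfp988 was not among them. Of all 14473 genes measured there, 531 were lower and 638 higher.

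The 7 members under the minimum in tumour nuclei were Zfp969 (0 UMIs in both libraries), Zfp987 (4 in Sun1_WT and 0 in Sun1_KO), Zfp989 (6 and 0), Zfp977 (10 and 1), Zfp957 (4 and 1), Zfp964 (1 and 1) and Zfp993 (30 and 12). They were too sparse to compare.

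A list of 29 genes around KRAB silencing, 27 for co-repressors and chromatin proteins and 2 for KRAB zinc-finger proteins (Zfp57 and Zfp809), passed the minimum in full in tumour nuclei. None was 2-fold apart, where 5.6% of all genes were higher and 3.31% lower. At least 1.5-fold higher were 2, beside 15.2% of all genes, and lower were 0, beside 10.1%. These counts depended on the scaling. With TMM 0 were higher and 1 lower, and with median-ratio scaling or mitochondrial genes in the total 1 was higher and 1 lower. The median was 0.25 beside 0.16 for all genes, and 0.03 beside -0.06 with TMM. Trim28 was at 0.01 (5027 and 2799 UMIs). The highest were the DNA methyltransferase Dnmt3b (0.75), Zfp57 (0.59), known for imprinting, and the histone methyltransferase Ehmt1 (0.54). The lowest were the histone methyltransferases Suv39h1 (-0.53) and Suv39h2 (-0.26) and the heterochromatin protein gene Cbx3 (-0.17).

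In host nuclei 14 of 61 members reached 50 summed UMIs, and their median ratio was -0.13 beside 0.10 for all 8224 measured genes. Above 0 were 6 and below 0 were 8, beside 59.9% and 40.1% of all genes. At least 1.5-fold higher was 1 and lower were 2, beside 9.19% and 6.82%. Zfp992 was the 1 member at least 2-fold higher, where 1.52% of all genes were, at 13.7 CPM (22 UMIs) in Sun1_WT and 30.0 CPM (42 UMIs) in Sun1_KO, a ratio of 1.12 (0.35 to 1.95). With 5 added to the counts in place of 0.5, Zfp992 was just under 2-fold, at 0.998. With 0.5 added to the counts none was at least 2-fold lower, where 1.57% of all genes were. Zfp952 lay at that limit, at 35 and 15 UMIs (21.8 and 10.7 CPM) and a ratio of -0.998 (-2.003 to -0.11), and it was past it with TMM (-1.09), median-ratio scaling (-1.10) and mitochondrial genes in the total (-1.06). Zfp933 was at -0.61 (39 and 22 UMIs). The other measured members were Zfp951 (0.18), Zfp950 (0.05), Zfp942 (-0.21), Zfp934 (-0.21), Zfp983 (-0.48), Zfp944 (-0.13), Zfp984 (-0.35), Zfp991 (0.42), Zfp948 (0.00), Zfp945 (0.40) and Zfp949 (-0.13). The host gate differed in its makeup: the summed macrophage list was 11000 CPM in Sun1_WT and 6767 CPM in Sun1_KO, and its part in these values was not tested.

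Levels in tumour and host nuclei of the same library were far apart for some members, chosen here after their values were seen and given as a description. Zfp985 counted 5291 UMIs in Sun1_WT tumour nuclei against 4 in host nuclei, 48.1 times the CPM (18.8 to 177). Zfp981 was 20.98 times higher (10.2 to 52.2), from 7 host UMIs, and Zfp979 23.6 times higher (6.52 to 195), from 2. Zfp991 and Zfp992 of the same group lay the other way. Zfp991 was at 6.12 CPM against 22.4 CPM in Sun1_WT and 6.79 against 30.0 CPM in Sun1_KO. Zfp992 was at 3.97 CPM against 13.7 CPM in Sun1_WT and 4.20 against 30.0 CPM in Sun1_KO. Outside the group, Zfp948 was 5.17 times higher in tumour nuclei of Sun1_WT (3.64 to 7.62).

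**Figure D3:**
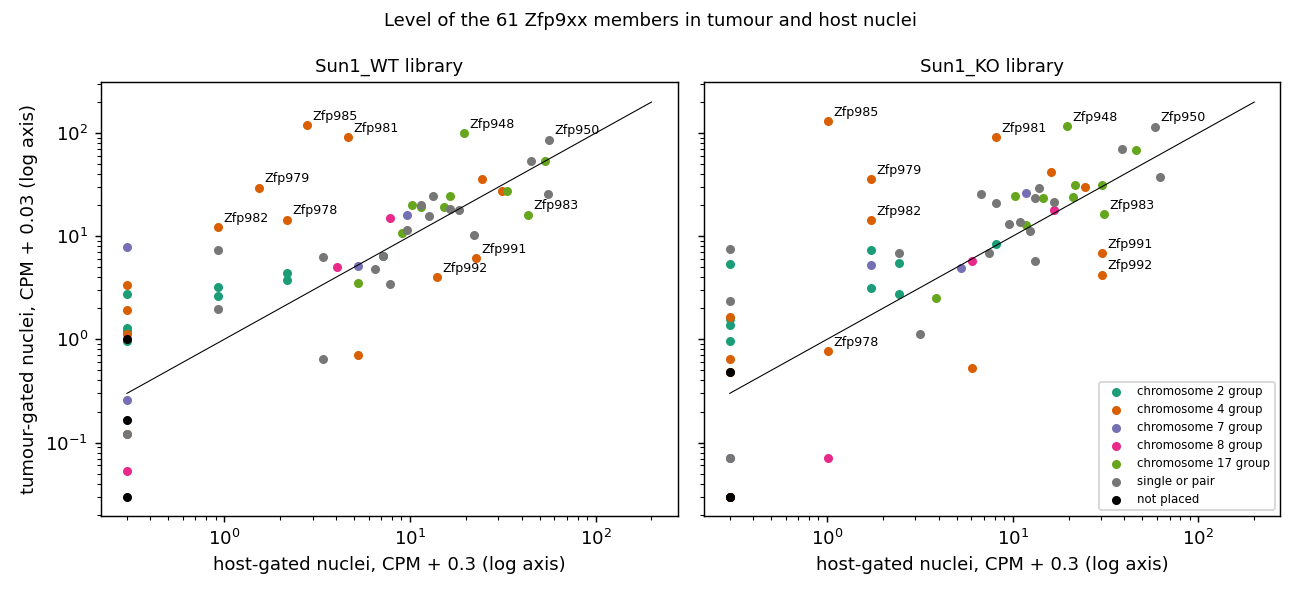
CPM of the 61 members in host nuclei (horizontal, 0.3 added) and tumour nuclei (vertical, 0.03 added) on log axes for each library. The line marks equal plotted values, so members with next to no UMIs in both kinds of nuclei fall below it. Zfp985, Zfp981, Zfp979 and Zfp982 lie far above the line in both libraries. Zfp978, with too few host UMIs to compare between libraries, does so only in the Sun1_WT panel.

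Accessibility was compared at regions called in both libraries within 1 kb of the gene, which 45 of the 58 placed members had. Their median ratio in tumour nuclei was -0.00, with a range from -1.28 to 0.94. At least 1.5-fold apart were 5 members, beside 5.17% of 18731 gene loci. Zfp936 went from 8.68 CPM (scaled to all counts in peaks of the gate) in Sun1_WT to 3.57 CPM in Sun1_KO (-1.28), with no count in host nuclei of either library. Zfp976 went from 5.75 to 3.01 CPM (-0.93) and stood at 4.62 and 4.88 CPM in host nuclei. These are the chromosome 7 windows printed above. Their RNA ratios were -0.57 and -0.04. Zfp988 was at -0.79 and Zfp991 at -0.73, each from 1 region at a low level. Zfp988 had 192 and 77 counts (0.985 and 0.568 CPM), and Zfp991 had 204 and 85 (1.05 and 0.627 CPM). The RNA ratios of Zfp988 and Zfp991 were -1.03 and 0.15. Zfp964 was at 0.94 from a low level, 0.467 and 0.900 CPM, beside 37.4 and 38.4 CPM in host nuclei. Accessibility counts are not independent single counts, so no interval is given.

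At Zfp978, 5 regions were shared, at 4.68 and 3.86 CPM (-0.28), 9 were called in Sun1_WT only and 0 in Sun1_KO only. Its span also covers Zfp991 and Zfp988. Over the whole chromosome 4 group, 25 regions were shared, 22 (43.1%) were called in Sun1_WT only and 4 (7.84%) in Sun1_KO only. In the flanking 5 Mb the Sun1_WT-only share was 7.71% and the Sun1_KO-only share 11.9%, and over the genome they were 8.97% and 13.9%. The shared regions of the group summed to a ratio of -0.00. That sum rested largely on strong regions, such as the region at the Zfp933 window with 6619 of 22811 Sun1_WT counts (0.03). Single shared regions ran from -1.35 to 1.19, the latter from 20 and 32 counts. Peaks were called by library, and a region called in 1 library has no value in the other.

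The first promoter window overlapped a shared region in 35 of 51 members, a Sun1_WT-only region in 1 (Zfp981) and no region in 15. Of the 7 members whose window was at least 90% identical to another member's, 5 had no region, beside 10 of the other 44. The Zfp985 window lay in a region at 15.8 and 14.6 CPM in Sun1_WT and Sun1_KO tumour nuclei and at 0.589 and 0.199 CPM in host nuclei, a difference in the same direction as its RNA. Zfp984 of the same group was at 22.0 and 22.1 CPM in tumour nuclei and at 22.0 and 18.01 CPM in host nuclei.

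**Figure D4:**
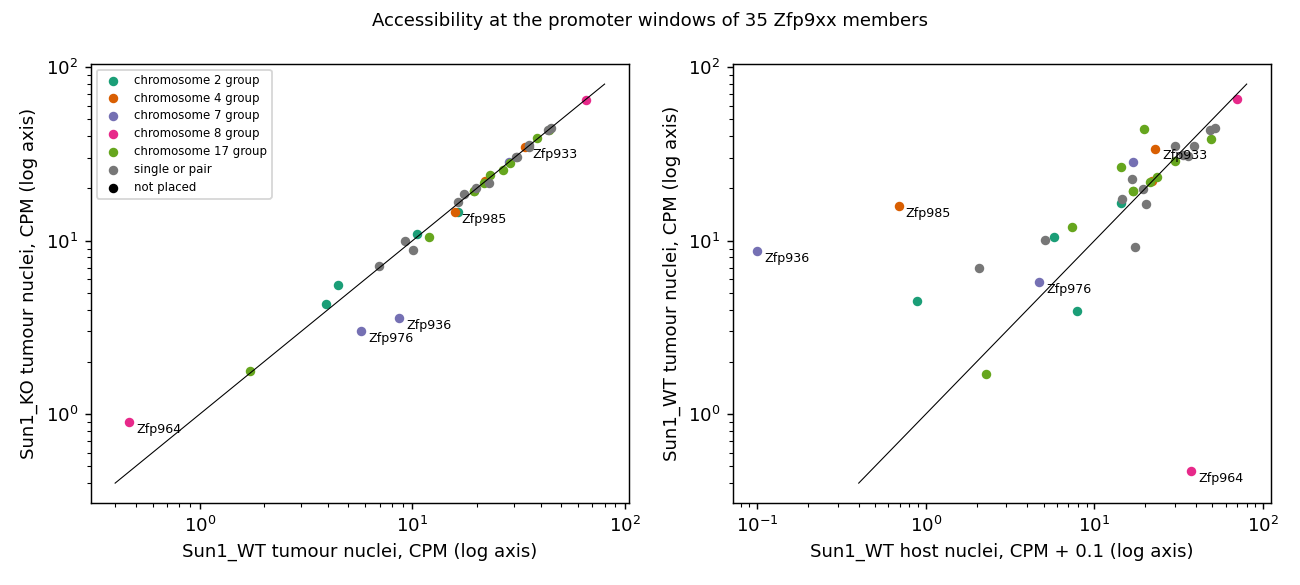
Accessibility (CPM, log axes) at the 35 member promoter windows that lie in shared regions: Sun1_KO against Sun1_WT tumour nuclei on the left, and tumour against host nuclei of Sun1_WT on the right, with lines of equal plotted values. On the right a small constant was added to the host values only. Zfp936 and Zfp976 lie below the line on the left, and Zfp985 and Zfp936 lie far above it on the right.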

How the data were processed

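Both assays were read as raw counts from the authors' deposited matrices, of UMIs by gene and of accessibility by peak, for each nucleus. The submitters' processing notes list Signac, Seurat, Cell Ranger ARC, Cell Ranger, FastQC and the mm10 build, with versions not given in the sources used here. In the authors' deposited table, baseMean is a signal (mean scaled count), log2FoldChange is a log2 ratio, lfcSE and stat were treated as a score, and pvalue and padj are p-values, per the file headers. That table was used only beside the counts of all nuclei, which were scaled by totals with mitochondrial genes.

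Nuclei were kept from 500 UMIs and 300 genes upward and up to 20% mitochondrial UMIs. Doublets were not called. Tumour nuclei had at least 3 UMIs of the tumour list and at most 10% of gating UMIs in the leukocyte list, and host nuclei at least 3 and at least 90%. UMIs were summed by gate and library and scaled by the total without mitochondrial genes. Ratios added 0.5, and genes needed 50 summed UMIs. Sums had exact Poisson and ratios exact conditional binomial intervals. Peaks overlapping by at least 1 bp were merged, and nuclei were carried over by barcode. The pipeline was tested on simulated data.

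Named were members at least 1.5-fold apart in tumour nuclei, the 5 highest in Sun1_WT tumour nuclei, those past the minimum in host nuclei, Sun1, 3 highest and 3 lowest genes of the KRAB silencing list, and the 5 genes nearest to the lowest member. Other members, and the neighbours on chromosome 4, were named after their values were seen. The members and lists were chosen with earlier results of these data known. The reference is a C57BL/6J assembly and the cells are from BALB/c, whose effect was not tested. Alternatives were TMM (edgeR 4.0.16, R 4.3.3, used for factors only), median-ratio scaling, totals with mitochondrial genes, other minimums, gates, filters and pseudocount, thinning, binarised accessibility and gene-body regions, with X-stretch subsets added after seeing the data. The counts by scaling were added after seeing the data. Work was done in Python 3.11.15 with numpy 2.4.6, pandas 2.3.3, scipy 1.17.1, biopython 1.88 and matplotlib 3.10.9.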

Additional observations from a re-analysis of the deposited data

Results flagged for a closer look

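Zfp952 had a ratio of 0.42 in tumour nuclei (450 and 331 UMIs) and -0.998 in host nuclei (35 and 15 UMIs). It drew attention because the ratios had opposite directions in the 2 kinds of nuclei. With 1 library per genotype the difference was not tested.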

How the results depend on the processing

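No paired analysis was possible because each genotype had 1 library. The count of members at least 2-fold higher in tumour nuclei, 1 in the report, was 0 with TMM scaling, 0 with median-ratio scaling, 0 with mitochondrial genes in the total and 2 with Sun1_WT nuclei under 3000 CPM in the X stretch. The count at least 2-fold lower, 5 in the report, was 1 with a minimum of 200 UMIs, 2 with a pseudocount of 5, 0 after thinning to 1000 UMIs and 2 with Sun1_WT nuclei under 3000 CPM in the X stretch. Of all genes measured, in the same order, 307 of 11815, 377 of 14573, 236 of 8738 and 320 of 13168 were at least 2-fold lower. At least 2-fold higher were 140 genes after thinning and 737 in the X-stretch subset. After thinning Zfp978 kept 37 UMIs in Sun1_WT and 1 in Sun1_KO, under the minimum. The host median of -0.13 was reversed to 0.057 with a minimum of 20 UMIs, and gave no value with a minimum of 200 or after thinning. The tumour median ran from 0.03 (TMM) to 0.31. TMM moved the median of all genes from 0.16 to -0.06, with 518 genes at least 2-fold higher and 875 lower in place of 816 and 482. Median-ratio scaling gave 609 and 749, and mitochondrial genes in the total 710 and 597. Zfp978 ran from -4.63 to -3.95 over 12 alternatives. A value for a single member was called close where it stayed inside the counting interval of its main value, which was wide for sparse members. The minimums of 20 and 200 UMIs could not change a ratio. A member under the minimum of a setting had no value there, and after thinning only Zfp975 of the named members had one. Of 157 values for single members, 153 stayed close, 4 moved and 0 reversed. The 4 were Zfp975 at 0.48 with TMM, 1.39 after thinning (from 0.69, then the 1 member at least 2-fold higher) and 0.86 in the X-stretch subset, and Zfp966 at 1.19 in that subset. The higher minimum, thinning and the X-stretch subset left 43, 23 and 47 members measured in place of 54. The cause of the other shifts was not tested.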
